A study of Mus musculus with 6 samples.

Results

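The type 1 vomeronasal receptors numbered Vmn1r187 and above were examined in the vomeronasal organ, the chemosensory organ of the nasal septum. Members were all genes with the symbol Vmn1r and a number not below that of Vmn1r187, which gave 50 gene identifiers with 49 symbols, out of 199 V1R genes and 35450 genes quantified. On GRCm38, 35 lie on chromosome 13 between positions 22084440 and 23253906, 14 on chromosome 17 between 20414146 and 21314912, and 1, Vmn1r238, on chromosome 18. No gene carried the symbol Vmn1r187. Poly(A) RNA was sequenced from 3 wild-type (Cnpy1+/+) and 3 Cnpy1 knockout (Cnpy1-/-) littermates at postnatal day 60, both organs of a mouse giving 1 directional library. Mouse 2 of the wild type and mouse 3 of the knockout were female, and the other 4 were male. The tissue was the whole organ without its outer bone, so fewer cells of a type and less RNA per cell cannot be told apart.

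V1R receptors are G protein-coupled receptors for small pheromone-like molecules. They are made by the apical sensory neurons of the organ, each of which is thought to use essentially one receptor gene, and they signal through the G protein subunit Gnai2 and the cation channel Trpc2. The coding sequence of a V1R gene is typically a single exon, while the transcript can carry further non-coding exons, and the genes sit in clusters of close relatives. RefSeq synonyms give older family names for most of the members. On chromosome 17 they are V1re (8 genes) and V1rf (5 genes), and on chromosome 13 V1rh (20 genes) and V1ri (10 identifiers). For 7 members no such synonym was found. Which ligands the individual receptors detect is not addressed by these data.

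Coding sequences of the members were close enough that reads could fit several genes, and the nearest relatives are shown for this reason. Over 1224 pairs of members the median coding identity was 55.8%, with a range of 44.8% to 96.0%, and 15 pairs exceeded 90%. The median within a family was 74.6% for V1rh, 74.4% for V1ri, 70.2% for V1re and 60.5% for V1rf. The 3 closest pairs are all on chromosome 13. For each, 90 bases of the reference coding strand are given, 5′ to 3′, with bases that differ within the pair in capitals. The Vmn1r209 and Vmn1r206 windows are chr13:22805796-22805885 and chr13:22620313-22620402, both on the minus strand, coding bases 634 to 723.
Vmn1r209: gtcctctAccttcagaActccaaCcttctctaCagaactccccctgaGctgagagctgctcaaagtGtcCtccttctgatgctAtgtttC
Vmn1r206: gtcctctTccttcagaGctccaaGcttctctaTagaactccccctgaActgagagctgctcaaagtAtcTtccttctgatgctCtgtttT
The Vmn1r221 and Vmn1r189 windows are chr13:23217772-23217861 on the plus strand and chr13:22102177-22102266 on the minus strand, coding bases 400 to 489.
Vmn1r221: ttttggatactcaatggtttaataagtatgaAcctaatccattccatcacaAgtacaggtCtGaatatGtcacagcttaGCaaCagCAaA
Vmn1r189: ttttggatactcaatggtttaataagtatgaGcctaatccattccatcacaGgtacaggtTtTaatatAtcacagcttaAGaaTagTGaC
The Vmn1r222 and Vmn1r188 windows are chr13:23232547-23232636 on the minus strand and chr13:22088283-22088372 on the plus strand, coding bases 406 to 495.
Vmn1r222: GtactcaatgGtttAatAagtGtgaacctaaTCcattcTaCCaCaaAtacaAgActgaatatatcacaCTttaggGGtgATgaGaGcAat
Vmn1r188: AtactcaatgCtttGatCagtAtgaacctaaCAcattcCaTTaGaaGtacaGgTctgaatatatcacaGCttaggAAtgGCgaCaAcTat

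The first pair differs at 9 of these bases and at 38 of 939 coding bases, the second at 11 and at 41 of 939, and the third at 23 and at 61 of 927. Counting whole transcripts and words on either strand, 45 members had over 50% of their 31-base words in no other quantified gene, and 23 had over 90%. Close relatives were nevertheless assigned unequal levels. Levels of different genes are compared in TPM, the deposited abundance per transcript length and relative to the library, summed per gene. Vmn1r206 had a mean of 8.78 TPM and Vmn1r209 1.28 TPM, and Vmn1r206 was higher in all 6 libraries. Vmn1r221 had 5.66 TPM and Vmn1r189 3.78 TPM, and Vmn1r221 was higher in all 6. Vmn1r188 had 4.25 TPM and Vmn1r222 0.73 TPM, again with the same order in all 6. The next 3 pairs differed less. Vmn1r217 and Vmn1r220, 93.2% identical, had 15.1 and 13.9 TPM, and Vmn1r199 and Vmn1r214, 91.9% identical, had 6.81 and 6.55 TPM. Vmn1r189 and Vmn1r200, 91.8% identical, had 3.78 and 5.40 TPM.

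Before the levels and the genotype comparison, the libraries were checked. They held 60969508 to 71670766 estimated reads. Cnpy1, the targeted gene, was at 280, 303 and 325 CPM in wild-type mice and 67.2, 77.6 and 76.3 CPM in the knockout (log2 fold change -2.04, SE 0.08, edgeR adjusted p = 1.75e-05), as the labels say. CPM are a gene's reads divided by the library's total and put on a common scale, here with TMM factors. Markers of both neuron classes were present. Gnai2 lay between 620 and 749 CPM and Gnao1 between 225 and 320 CPM.

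Almost all of the receptors were detected. Reads were assigned in all 6 libraries for 48 of the 50 identifiers, and Vmn1r238 had 0 reads in every library. The mean level exceeded 10 TPM for 11 members, lay between 1 and 10 TPM for 30 and was under 1 TPM for 9. Of all 199 V1R genes ranked by mean TPM, the members held 7 of the top 20 places and 19 of the top 50. Within the set the 10 highest held 50.03% of the summed TPM. The sum of all members was 31.1% ± 0.66 of V1R reads in wild type and 31.3% ± 0.33 in the knockout (SD, n = 3 each).

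Vmn1r197 (ENSMUSG00000069294.2, V1rh21, chromosome 13, 22324589 to 22332866, plus strand) had the highest mean, with 18.1, 18.6 and 25.4 TPM in the wild-type mice and 18.6, 18.4 and 25.7 TPM in the knockouts. Vmn1r210 (ENSMUSG00000061296.2, V1rh10, chromosome 13, 22825875 to 22831348, minus strand) had 16.4, 20.1 and 22.2 TPM in wild type and 17.9, 15.9 and 26.0 TPM in the knockout. Vmn1r218 (ENSMUSG00000115020.1, V1ri5, chromosome 13, 23133155 to 23146112, plus strand) had 18.3, 16.4 and 23.8 TPM in wild type and 19.1, 15.6 and 23.7 TPM in the knockout. In all 3 receptors mouse 3 of each genotype was highest, and the genotypes overlapped.

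Of the next 5 places, 3 were held by V1re genes of chromosome 17 and 2 by genes of chromosome 13. Vmn1r231 had 13.6, 17.2 and 19.3 TPM in wild type and 14.4, 13.05 and 20.2 TPM in the knockout. Vmn1r228 had 12.97, 14.04 and 17.7 TPM against 15.9, 14.2 and 18.8 TPM, and Vmn1r230 had 12.3, 13.95 and 17.1 TPM against 14.5, 12.8 and 17.9 TPM. The values of the 2 genotypes interleaved in each of these. Of the remaining top 10, Vmn1r192 (V1ri1) had a mean of 16.03 ± 2.13 TPM, Vmn1r217 (V1rh14) 15.1 ± 1.93, Vmn1r220 (V1rh12) 13.9 ± 1.51 and Vmn1r235 (V1rf2) 12.8 ± 1.76 TPM (SD, n = 6). Each of the 4 families therefore had a member among the 10 highest.

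Most neighbours in the order overlapped. Of 49 neighbouring places, all 6 libraries of the higher gene lay above all 6 of the lower in 2, between Vmn1r201 and Vmn1r195 and between Vmn1r212 and Vmn1r238. Compared within each library, the higher gene was above its neighbour in all 6 for 7 places. Besides those 2, they were Vmn1r196 over Vmn1r202, Vmn1r226 over Vmn1r236, Vmn1r232 over Vmn1r188, Vmn1r229 over Vmn1r227 and Vmn1r234 over Vmn1r209. At the low end with reads in all 6 libraries, Vmn1r215 had 0.56 to 0.85 TPM, Vmn1r201 0.51 to 1.06, Vmn1r195 0.19 to 0.47, Vmn1r205 0.14 to 0.37 and Vmn1r212 0.08 to 0.39 TPM. Between mice a receptor's CPM varied little. Over the 45 members with a mean above 1 CPM the median coefficient of variation was 9.14%, and it was 7.71% when each receptor was expressed as a share of V1R reads.

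**Figure D1:**
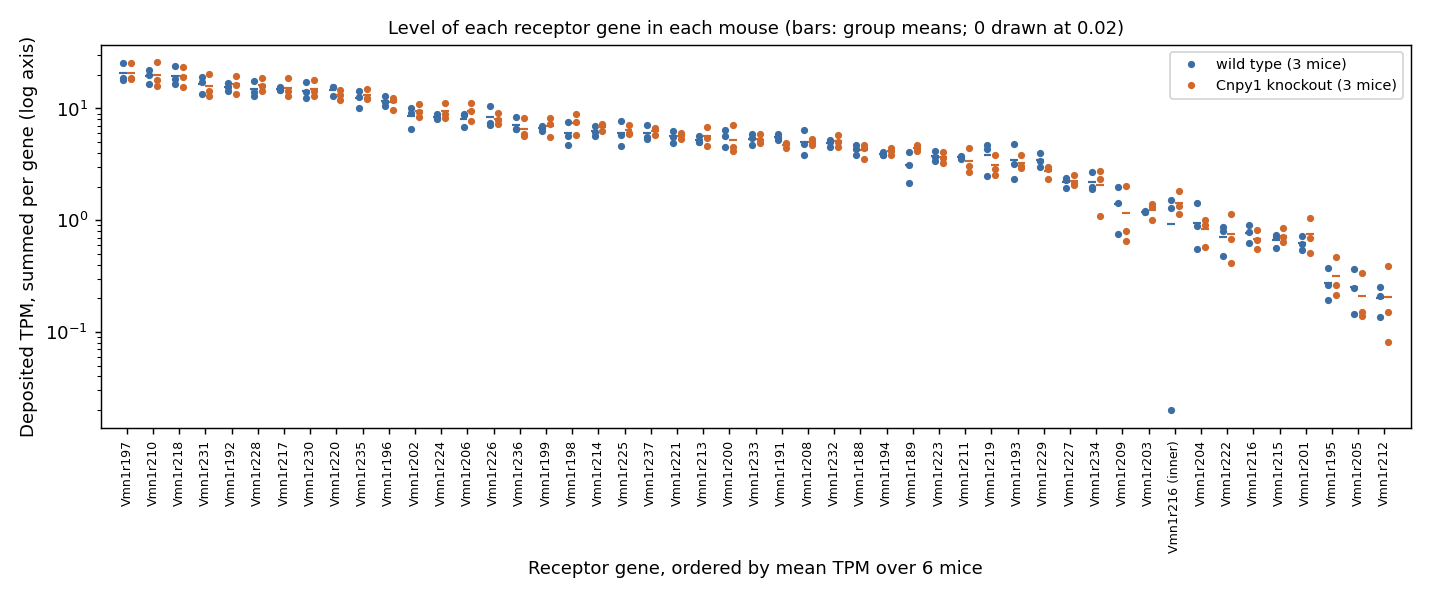
Deposited TPM of each receptor (vertical log axis) in 3 wild-type and 3 knockout mice, with group means as bars and receptors in order of mean level along the horizontal axis. Levels run from 20.8 TPM for Vmn1r197 to 0.20 TPM for Vmn1r212, neighbours overlap except Vmn1r201 and Vmn1r195, and the single point at the bottom is the inner Vmn1r216 identifier, at 0 in wild-type mouse 1.

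One symbol had a pair of identifiers. Vmn1r216 is listed as ENSMUSG00000115697.2 (chromosome 13, 23096976 to 23108732, plus strand) and as ENSMUSG00000116057.1 (23099071 to 23100129), which lies inside the former and has 0% of its 31-base words to itself. The inner identifier had 0 estimated reads in wild-type mouse 1 and at least 50 in the other 5. Added together, the pair held 314, 385 and 491 reads in wild type and 342, 313 and 444 in the knockout, or 5.84 ± 0.97 and 5.90 ± 0.64 CPM (SD, n = 3 each). The sum, unlike its parts, does not depend on how reads were divided between these identifiers. Vmn1r216 also overlaps Vmn1r217 on the opposite strand.

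Most of the reads fell on long multi-exon transcripts. Of 49 members with reads, 44 had a multi-exon transcript as the one with most reads, and the median length of these 44 transcripts was 5420.5 bases against coding sequences of 870 to 1155 bases. For 41 members a short one-exon transcript, at most 600 bases longer than its coding sequence, is annotated beside longer ones. Such transcripts took a median of 7.44% of a gene's reads and 28.3% of its TPM. For 13 members they held over 50% of TPM, and for 0 members over 50% of reads. Vmn1r217, for example, had 27.7% of its reads and 84.3% of its TPM in an 897-base transcript. By CPM, which takes no account of length, the order differed. Vmn1r218 was first, with 91.4, 81.1 and 101 CPM in wild-type mice and 94.3, 90.7 and 93.6 CPM in the knockout, while Vmn1r197 was in place 10. Of the 10 highest by TPM, 6 were also among the 10 highest by CPM.

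**Figure D2:**
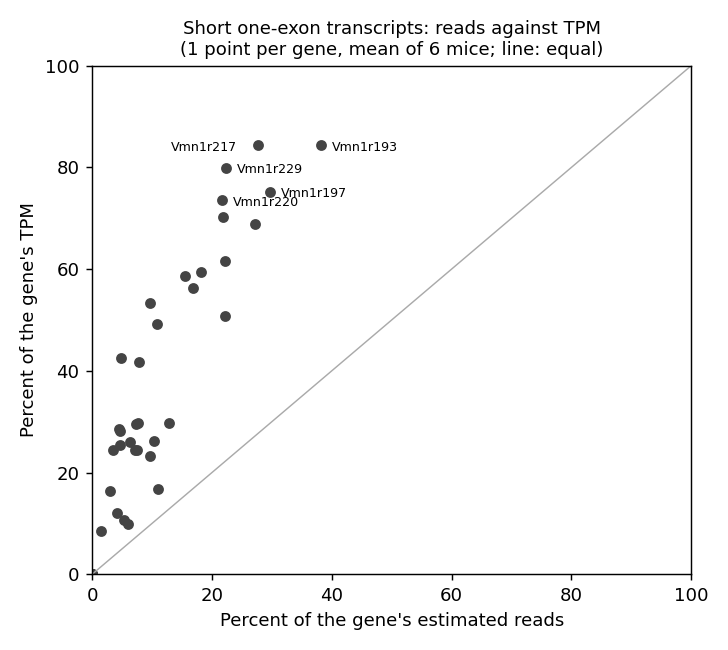
Share of each receptor's estimated reads (horizontal axis, percent) against share of its TPM (vertical axis, percent) held by short one-exon transcripts, 1 point per gene, mean of 6 mice. All genes with such reads lie above the line of equality, up to 38.2% of reads and 84.4% of TPM for Vmn1r193.

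The genotype comparison asked whether these receptors differ without Cnpy1, which encodes a Canopy family protein. Of the 48 members tested, 0 were called by edgeR's quasi-likelihood test at an adjusted p under 0.05, while 0.761% of the 16679 genes tested were, 0.683% lower and 0.0779% higher in the knockout. DESeq2 called 1, Vmn1r206, against 2.45% of all genes. At an unadjusted p under 0.05 there were 7 members, all higher in the knockout. That is 14.6% of the members, where 10.5% of all genes passed in either direction, 4.55% with a higher and 5.99% with a lower level. Under some other settings the share of members was below that of all genes. It was 6.25% against 7.76% with no scaling factors, 8.16% against 8.61% in males only and 2.08% against 5.70% with limma on log2(TPM + 0.1). The estimates were small. The median log2 fold change was 0.13, against 0.01 for all genes, and 35 of the 48 were within 0.2 of 0. Without knockout mouse 3 the median was 0.08.

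Vmn1r206 (ENSMUSG00000101578.2, V1rh7, chromosome 13, 22617456 to 22624251, minus strand) had the lowest p. It was at 17.4, 18.8 and 19.9 CPM in wild-type mice and 24.4, 22.5 and 24.0 CPM in the knockout, so every knockout lay above every wild type. This was a log2 difference of 0.34 with an SE of 0.07 (edgeR adjusted p = 0.106), and DESeq2 gave an adjusted p of 0.00805. In TPM the groups overlapped, with 6.78, 8.86 and 8.74 against 9.45, 7.71 and 11.1, and limma on log2(TPM + 0.1) gave 0.21 (adjusted p = 0.975). Of its 31-base words, 77.4% were in no other gene. Its close relative Vmn1r209 had 3.69 ± 0.24 CPM in wild-type mice and 4.15 ± 0.58 CPM in knockouts (SD, n = 3 each).

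Vmn1r189 (ENSMUSG00000099611.2, V1rh2, chromosome 13, 22099762 to 22105824, minus strand) had 5.38, 5.19 and 7.48 CPM in wild-type mice and 7.84, 9.59 and 8.19 CPM in the knockout. The groups did not overlap, with a log2 difference of 0.50 and an SE of 0.16 (edgeR adjusted p = 0.297), but only 46.0% of its 31-base words were unique. Vmn1r198 (ENSMUSG00000095125.2, V1ri3, chromosome 13, 22350364 to 22360301, plus strand) had 14.8, 18.9 and 17.7 CPM in wild-type mice and 21.5, 19.8 and 25.6 CPM in the knockout (log2 fold change 0.38, SE 0.12, edgeR adjusted p = 0.307). In CPM no knockout fell among the wild types, while in TPM the groups overlapped.

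The other 4 at an unadjusted p under 0.05 had smaller estimates. Vmn1r224 (no family synonym) was at 32.7, 29.1 and 33.1 CPM in wild-type mice and 35.0, 35.4 and 42.4 CPM in the knockout, a log2 fold change of 0.25, which was 0.10 in males and 0.15 without knockout mouse 3. Vmn1r228 (V1re3) was at 32.5, 31.7 and 37.5 CPM against 37.3, 38.5 and 43.0 CPM, a log2 fold change of 0.22, which was 0.11 in males, and overlapped between the genotypes. The 91.9% identical V1rh receptors Vmn1r199 and Vmn1r214 had log2 fold changes of 0.21 and 0.19, with 11.3 ± 0.55 against 13.1 ± 0.73 CPM and 11.2 ± 0.81 against 12.8 ± 0.59 CPM (SD, n = 3 each). None of the 4 was called by either tool.

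Few estimates pointed the other way. Among members with a mean of at least 1 CPM, 4 had a log2 fold change below 0, namely Vmn1r229 (-0.15, SE 0.10), the outer Vmn1r216 identifier (-0.09, SE 0.12), Vmn1r219 (-0.04, SE 0.10) and Vmn1r236 (-0.04, SE 0.13). The fifth lowest, Vmn1r211, was at 0.00 (SE 0.12). Vmn1r229, the lowest, had 6.25, 5.98 and 7.26 CPM in wild-type mice and 5.93, 5.65 and 5.997 CPM in the knockout, with overlapping groups. With effective transcript lengths as an offset its log2 fold change was -0.26 (SE 0.11), and it was then the 1 member lower at an unadjusted p under 0.05, beside 5 higher. On log2(TPM + 0.1) it was -0.32, and without wild-type mouse 3 it was -0.06. Vmn1r222 (0.38, SE 0.41) and Vmn1r201 (0.32, SE 0.21) were among the 5 largest increases, but at 0.84 to 2.39 and 2.05 to 3.56 CPM their groups overlapped. Vmn1r201 was at 0.05 in males and 0.08 without knockout mouse 3.

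In direction, 43 of the 48 estimates were above 0, which was 89.6% against 52.3% of all genes. With library totals in place of TMM factors it was 36 of 48 (75.0% against 41.5% of all genes), and the log2(TPM + 0.1) scale gave 28 of 48 (58.3% against 28.5%). In males alone it was 32 of 49 (65.3% against 51.8%), and without knockout mouse 3 it was 35 of 48 (72.9% against 51.3%). The knockout values all lay above the wild-type values for 10 members, 20.8% against 7.24% of all genes, and all below for 0, against 8.96%. These are CPM values, and in TPM 1 of the 10, Vmn1r189, kept groups that did not overlap. Expressed as shares of V1R reads, 3 members had every knockout above every wild type and 2 had every knockout below. The V1R genes with lower numbers had a median log2 fold change of 0.10 and 92 of 121 above 0.

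**Figure D3:**
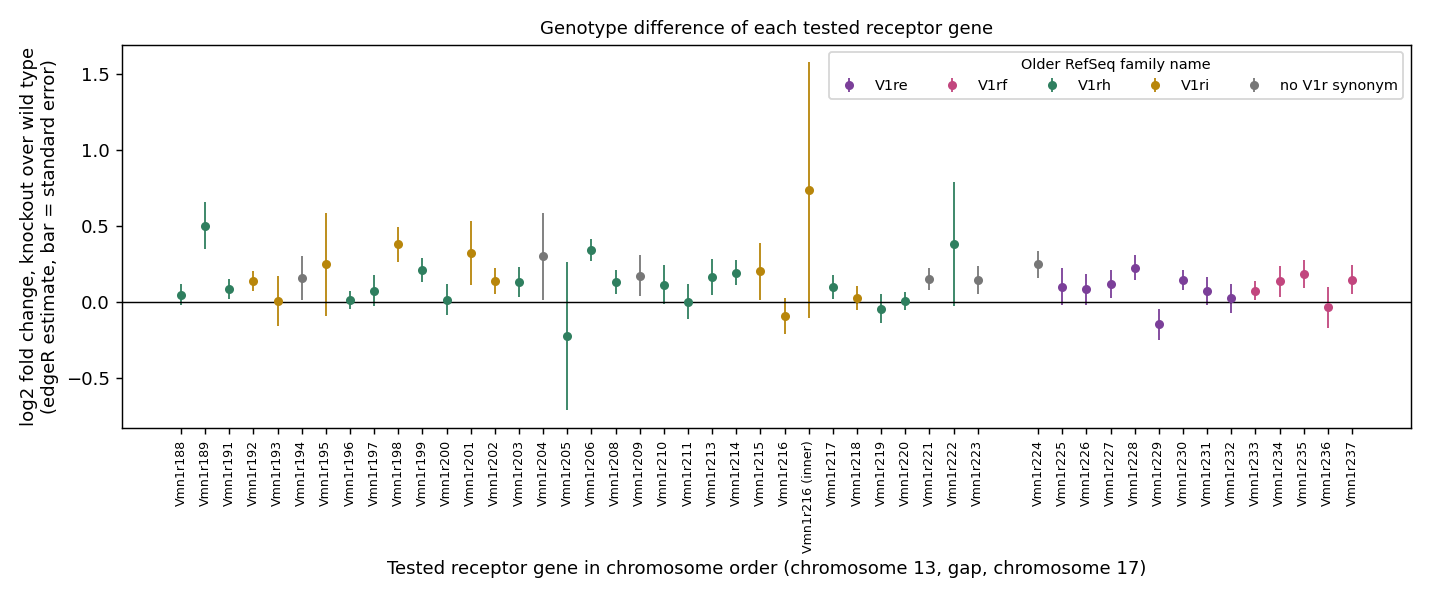
Log2 fold change of each tested receptor, knockout over wild type (vertical axis, edgeR estimate with its standard error as a bar), in chromosome order along the horizontal axis and coloured by older family name. Most points lie between 0 and 0.3, and the wide bars belong to receptors with few reads and to the inner Vmn1r216 identifier.

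Whether the summed receptor RNA differed by more than the spread between mice depended on the scaling. Members together made up 746, 772 and 881 CPM (without TMM factors) in the wild-type mice and 803, 787 and 949 CPM in the knockouts. Means were 799 ± 71.4 and 847 ± 89.4 (SD, n = 3 each), a log2 ratio of 0.08, which is less than the spread, and the groups overlapped. Mouse 3 was the highest in both genotypes, a male in wild type and a female in the knockout, and held the highest value of its genotype for 31 of 48 members in each. On this scale the log2 ratio was -0.01 without knockout mouse 3 and -0.03 in males. With TMM factors the sums were 771, 754 and 844 CPM against 826, 830.5 and 905 CPM. The means were then 789.8 ± 48.1 and 853.8 ± 44.7 (SD, n = 3 each), a difference larger than either SD, although the groups still overlapped. That log2 ratio was 0.11, and it was 0.07 without knockout mouse 3 and 0.04 in males. In TPM the sums were 326 ± 40.5 and 332 ± 51.9 (SD, n = 3 each).

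The families moved little in relation to each other. V1rh took 12.2% ± 0.45 of V1R reads in wild type and 12.2% ± 0.11 in the knockout, V1ri 7.57% ± 0.13 and 7.61% ± 0.14, V1re 5.77% ± 0.08 and 5.87% ± 0.09, and V1rf 3.32% ± 0.12 and 3.26% ± 0.12 (SD, n = 3 each). Members without a synonym took 2.27% ± 0.17 and 2.44% ± 0.02, and their knockout values, 2.42% to 2.45%, overlapped with the wild-type range of 2.09% to 2.42%. Members at an unadjusted p under 0.05 numbered 4 of 19 in V1rh, 1 of 10 in V1ri, 1 of 8 in V1re, 0 of 5 in V1rf and 1 of 6 without a synonym. These are 21.1%, 10%, 12.5%, 0% and 16.7%, where 10.5% of all genes passed.

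**Figure D4:**
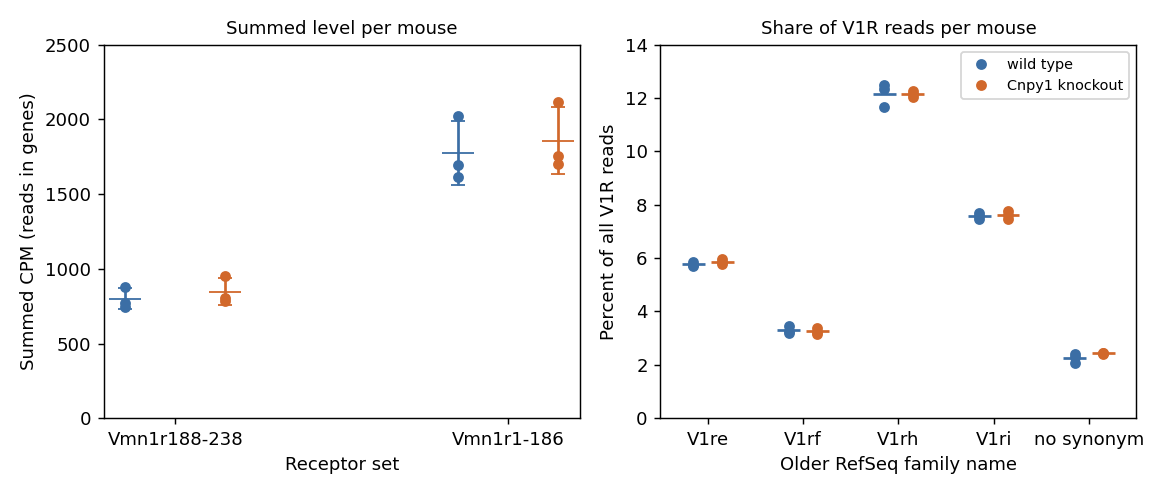
Left, summed CPM of the members and of V1R genes with lower numbers in each mouse, with mean and SD. Right, percent of all V1R reads held by each older family in each mouse, with group means as bars; in both panels the genotypes overlap.

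Listed genes of V1R signalling and apical neurons pointed in both directions, more of them lower than higher in the knockout. Their summed level was 5474 to 5585 CPM in wild-type mice against 4798 to 5126 CPM in knockouts. Of 15 listed genes of V1R signalling and apical neurons, 0 were called by edgeR (0.761% of all genes), and at an unadjusted p under 0.05 there were 2 higher and 7 lower (4.55% and 5.99% of all genes). Gnai2, the G protein subunit of these neurons, was at 644 ± 33.0 CPM in wild-type mice and 726 ± 27.4 CPM in knockouts (log2 fold change 0.17). Trpc2, the transduction channel, was at 312 ± 28.0 and 249.8 ± 17.2 CPM (-0.32), and Omp, the olfactory marker protein of mature neurons, had a log2 fold change of -0.31 (SD, n = 3 each). DESeq2 called 4 of the 15, against 2.45% of all genes. Other marker lists were examined as well. Among 9 listed basal neuron markers edgeR called 4, all lower, and their summed level was 1012 to 1047 CPM in wild-type mice against 721 to 783 CPM in knockouts. Of 7 markers shared by mature neurons 1, Stom, was called lower and 5 were lower at an unadjusted p under 0.05, of which Omp, Trpc2 and Ano2 are also among the signalling genes, with sums of 2983 to 3213 against 2441 to 2540 CPM. Of 8 progenitor and immature neuron markers 1, Top2a, was called higher and 3 were higher at an unadjusted p under 0.05, with overlapping sums of 292 to 349 and 310 to 360 CPM. Of 7 immune cell markers 0 were called and 4 were higher at an unadjusted p under 0.05, with sums of 314 to 351 against 399 to 502 CPM. In the other 8 marker lists 0 genes were called, and at an unadjusted p under 0.05 there was 1 gland marker higher, 1 glial marker lower and 0 in the other 6. The part of these differences in the receptor values was not tested.

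Sex was examined because the labels give it. For the sex term 0 of the 48 members were called, where 0.042% of all genes were, and 2 had an unadjusted p under 0.05 (4.17% of members, 5.5% of all genes). They were Vmn1r198 (female minus male log2 difference 0.26, SE 0.09, edgeR adjusted p = 0.856) and the low-level Vmn1r195 (0.70, SE 0.27, edgeR adjusted p = 0.856). For the interaction of genotype and sex 0 were called, where 0.024% of all genes were, and 6 had an unadjusted p under 0.05 (12.5% against 4.5%). These were Vmn1r197, Vmn1r200, Vmn1r204, Vmn1r224, Vmn1r230 and Vmn1r236. With 1 female per genotype, sex and the single mouse cannot be told apart in this term.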

How the data were processed

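Per the submitters' processing notes, reads were trimmed with Trim Galore 0.6.6 and quantified with Salmon 1.9.0, with DESeq2 and the builds mm10 and GRCm38 also named. The authors deposited an estimated count and a TPM per transcript for 117081 transcripts, per the file headers. The annotation release is not given in the sources used here. Transcripts were joined by identifier to GENCODE M21 (GRCm38), where 115942 matched, and unmatched ones (0.277% to 0.355% of reads) were left out. Estimated counts were summed per gene and rounded. The main test was edgeR 4.0.16 in R 4.3.3 (quasi-likelihood, TMM, filterByExpr, genotype only, Benjamini-Hochberg over 16679 genes). DESeq2 1.42.0 and limma 3.58.1 were alternatives. The common biological coefficient of variation was 12.8%. In simulated data of this design and 16720 genes, 58.0% of 1.5-fold and 98.0% of 2-fold increases were called. Every simulated gene had this same coefficient. The changed genes were drawn from those with more reads than the rarest members, so these rates do not cover such members.

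The members, lists and tests were chosen with earlier results of these data known. Named with values were the 10 highest and 5 lowest members, those at an unadjusted p under 0.05, the 5 largest fold changes in each direction with a mean of at least 1 CPM, the closest pairs, Cnpy1 and listed genes. Only 4 members met the rule for decreases, and Vmn1r211, at 0.00, was kept as the fifth lowest. Pairs were to be ranked by protein identity; identity of coding sequences was used instead. Mice are labelled as biological replicates, 1 library each.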

Additional observations from a re-analysis of the deposited data

How the results depend on the processing

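Calls of members by genotype stayed at 0 in 21 of 22 alternatives and were 1 with DESeq2. Members at an unadjusted p under 0.05 numbered 3 with no scaling factors (6.25% against 7.76% of all genes), 4 in males only (8.16% against 8.61%), 1 with limma on log2(TPM + 0.1) (2.08% against 5.70%), and 4 to 9 when each mouse was left out in turn, the lowest without wild-type mouse 1. The median log2 fold change over all members tested was 0.053 in males only, where it was 0.0066 for all genes, and 0.024 with limma on TPM, where it was -0.071 for all genes. Signalling genes called were 4 with DESeq2. By TMM-scaled CPM, 6 of the 10 highest members were shared with the TPM order. By reads per kilobase of all exons, chosen after seeing the data like the sum without Vmn1r218, the TMM-scaled sums without some mice and the count without rarely read members, it was 7. For sex and its interaction with genotype, 0 members were called in any of the 3 alternatives, DESeq2 included. On log2(TPM + 0.1), Vmn1r224 was 0.16, Vmn1r228 0.13, Vmn1r199 0.057 and Vmn1r201 0.19, and without knockout mouse 2 Vmn1r201 was 0.48. The sign changed for 4 named members, 3 of them near 0 and Vmn1r222 at 0.38. Vmn1r211 was -0.024 with no scaling factors, -0.0079 with sex as a term, -0.090 in males only, -0.033 with effective lengths as an offset, -0.12 with limma on TPM, and -0.12 to 0.060 with a mouse left out. Leaving out 1 mouse gave -0.10 to 0.064 for Vmn1r219, -0.17 to 0.13 for Vmn1r236 and -0.16 to 0.71 for Vmn1r222. Over all their alternatives the range was -0.27 to 0.064 for Vmn1r219 (lowest with limma on TPM), -0.21 to 0.13 for Vmn1r236 (lowest in males only), and -0.18 to -0.018 for the outer Vmn1r216 identifier (lowest in males only, highest without wild-type mouse 3). With effective lengths as an offset Vmn1r219 was -0.23 and Vmn1r222 0.17, and with limma on TPM Vmn1r222 was 0.0031. The cause was not tested.

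With the replicate number as a block, 0 members were called, 10 had an unadjusted p under 0.05 (20.8% against 13.4% of all genes), 1 signalling gene was called, and Vmn1r211 was at -0.0063. Deviations of same-numbered mice correlated at 0.15, -0.09 and 0.23 over 16679 genes, and those of differently numbered mice at -0.29 to 0.17. Deviations were taken from group means of 3 mice, which ties these values to each other. They therefore cannot settle whether the numbers pair the mice. Over all genes 154 were called with the block and 127 without, and 409 by DESeq2. Depth limits receptors with few reads, such as Vmn1r205 with 6 to 18 reads and a standard error of 0.49. The widest, 0.85, was that of the inner Vmn1r216 identifier, with 0 reads in 1 mouse and 50 to 77 in the others. Changes of 1.5-fold were often missed in simulated data, where the changed genes had more reads than Vmn1r205 or the inner Vmn1r216 identifier.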
